A study of Homo sapiens with 8 samples.

Results

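The genes described here are 49 genes of mitosis and the spindle, given as a fixed list, in 8 RNA-seq libraries of human hepatocellular carcinoma (HCC) cells. The members were found by symbol in GENCODE release 44, and all 49 were among the 13437 genes tested in HepG2 and the 13351 tested in the libraries labelled Hep3B, that is, genes that reached an FPKM (fragments per kilobase of transcript, scaled to library size) of 1 somewhere among a line's 4 libraries. A total of 15455 genes reached that level in the whole series. In all 8 libraries 45 of the 49 members had an assigned transcript.

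HepG2 cells and cells labelled Hep3B, both wild type, were left untreated (control) or treated for 48 h with NaB, with curcumin (Cur) and piperine (Pip), or with all 3 agents (combination treatment). NaB is sodium pentaborate pentahydrate, a boron compound, given at 2500 µM to HepG2 and 1700 µM to the cells labelled Hep3B. Cur, a polyphenol of turmeric, was given at 30 µM and Pip, an alkaloid of pepper, at 6 µM in both lines, so neither was given without the other. There was 1 library per condition and no library of cells given only the solvent. No p-value can therefore be given for a treatment within a line, and a difference is called past the threshold when the log2 fold change, log2((FPKM + 1) treated / (FPKM + 1) control), was over 1.5 in absolute value. Bracketed intervals are 95% Cufflinks intervals, built for a gene from those of its transcripts. They hold the estimation error of 1 library and no spread between cultures.

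A cell enters mitosis when the kinase CDK1 is switched on by cyclins A and B. Kinetochores then attach the chromosomes to the spindle, and the spindle checkpoint holds back the anaphase-promoting complex with CDC20 until every chromosome is attached. Most of these genes are transcribed in G2 and mitosis, through the MuvB complex with B-MYB and FOXM1, which reaches promoters at an element called CHR, and through NF-Y, which binds the CCAAT box. Their RNA is therefore widely used as a measure of how many cells divide. In bulk RNA, fewer dividing cells and less RNA per dividing cell cannot be told apart.

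The libraries differed in ways that touch these values. Of 20 hepatocyte markers, 16 to 20 reached 1 FPKM in the HepG2 libraries and 1 to 3 in those labelled Hep3B, where RB1, a gene that Hep3B is known to lack, was at 8.89 to 21.1 FPKM. Of 7 fibroblast markers 3 or 4 reached 1 FPKM in the libraries labelled Hep3B (summed FPKM 38.9 to 305) and 1 in each HepG2 library (2.29 to 6.03), with COL1A2 and THY1 at 0 in all 8. Of 6 squamous markers 0 to 2 did so, and KRT5 and DSG3 were at 0 in all 8. Of 8 intestinal markers 0 or 1 did, with CDX2 at 0 in all 8, and of 5 leukocyte markers 0 to 2 did (summed FPKM up to 1394, nearly all of it LYZ), with PTPRC and CD3E at 0 in all 8. ALB, AFP, APOA2 and APOC3 were at 0 in HepG2 control, where short transcripts under 300 nt took 99.8% of the summed FPKM. The part of these differences in the results was not tested. The cells are called labelled Hep3B throughout. Transcripts with a single exon made up 16.4, 22.7, 34.1 and 32.2% of the assembly in HepG2 control, NaB, Cur and Pip, and combination, and 14.7, 19.1, 22.4 and 28.4% in the other line. The assembled transcripts covered 93.7% of the 760 annotated exons of the members in the HepG2 Cur and Pip library and 99.2 to 99.6% in the other 7. Because a gene's FPKM depends on what was assembled, a second measure is given beside it, the apportioned FPKM, in which every overlapping transcript of the strand counts by the share of the gene's annotated exons (canonical transcript) that it covers.

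Promoter windows of 300 bases (250 before the RefSeq start and 50 after it, GRCh38.p14) were matched for 41 of the 49 members, and their motifs were counted on both strands, with 1 window per gene. The CHR (TTTGAA or TTCGAA) was in 30 of 41 windows (73.2%) and in 16.6% of the 27305 genes with a window. The CCAAT box was in 32 (78.0%) against 35.7%, and in 20 (48.8%) there were 2 or more of them, against 11.3%. Both motifs were in 25 members (61.0%) against 6.58% of all genes, whereas an E2F-type site (TTGGCGC or TTCCCGC, and also TTGCCGC or TTCGCGC) was in 11 (26.8%) against 13.0% and TATAAA in 2 (4.88%) against 11.9%. ATTGG, the CCAAT box read on the other strand, shares letters with TTGGCGC, so these matches can overlap, and a match is a description of letters, not of binding. The 250 bases before the start are shown for the members with both motifs that had the highest control levels in HepG2, with CHR and CCAAT matches of either strand in capitals, because they show how the motifs are laid out in genes whose levels are described below. They lie at chr9:89310945-89311194 (CKS2, plus strand), chr1:154974431-154974680 (CKS1B, plus), chr17:40417897-40418146 (TOP2A, minus), chr1:43358731-43358980 (CDC20, plus) and chr4:120066849-120067098 (MAD2L1, minus), all 5′ to 3′ on the gene's strand. PRC1 would have come next before MAD2L1 and is not shown, since the stretch lies in an exon of a longer transcript.
CKS2: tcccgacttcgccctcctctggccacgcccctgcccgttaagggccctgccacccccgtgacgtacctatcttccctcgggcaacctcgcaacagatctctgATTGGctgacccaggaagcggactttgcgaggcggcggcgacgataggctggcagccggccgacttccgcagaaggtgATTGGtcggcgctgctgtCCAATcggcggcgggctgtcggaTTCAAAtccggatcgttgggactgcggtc
CKS1B: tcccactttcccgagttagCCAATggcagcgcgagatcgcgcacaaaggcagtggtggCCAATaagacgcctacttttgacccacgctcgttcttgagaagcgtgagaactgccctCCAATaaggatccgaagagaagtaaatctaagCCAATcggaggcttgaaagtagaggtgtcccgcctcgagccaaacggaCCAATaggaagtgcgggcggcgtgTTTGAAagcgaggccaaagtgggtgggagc
TOP2A: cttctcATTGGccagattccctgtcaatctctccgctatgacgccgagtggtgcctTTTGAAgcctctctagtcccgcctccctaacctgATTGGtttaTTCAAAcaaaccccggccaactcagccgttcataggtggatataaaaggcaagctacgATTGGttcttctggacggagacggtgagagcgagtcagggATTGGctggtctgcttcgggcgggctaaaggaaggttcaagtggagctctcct
CDC20: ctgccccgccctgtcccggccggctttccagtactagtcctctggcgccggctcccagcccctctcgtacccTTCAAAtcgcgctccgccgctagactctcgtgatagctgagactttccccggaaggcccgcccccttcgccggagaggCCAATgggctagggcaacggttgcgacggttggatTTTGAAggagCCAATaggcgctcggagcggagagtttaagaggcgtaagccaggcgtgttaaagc
MAD2L1: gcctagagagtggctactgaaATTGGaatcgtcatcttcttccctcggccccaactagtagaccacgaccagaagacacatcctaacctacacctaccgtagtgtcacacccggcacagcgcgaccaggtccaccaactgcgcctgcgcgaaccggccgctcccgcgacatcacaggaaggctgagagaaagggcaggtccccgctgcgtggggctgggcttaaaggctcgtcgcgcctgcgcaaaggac
CKS1B holds 5 CCAAT boxes and 1 CHR in this stretch, TOP2A 4 and 2, CKS2 3 and 1, and CDC20 2 and 2. In MAD2L1 the only CHR lies after the start, outside the stretch shown. The median log2 fold change in HepG2 given Cur and Pip was -1.41 over 28 members with a CHR (range -2.88 to 0.27) and -1.34 over 11 without (range -2.59 to -0.15), so the ranges overlapped. With a CCAAT box it was -1.48 (30 members) and without it -1.34 (9 members).

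Untreated, the members were at a median of 15.9 FPKM in HepG2 (48 listed, 2.32 to 141) and 40.5 FPKM in the cells labelled Hep3B (49 listed, 4.73 to 249). Of 48 members listed in both controls, 45 were higher in the cells labelled Hep3B, beside 57.1% of all genes listed in both, and 13 passed the threshold higher, beside 9.92%. The median difference was 1.2 on the log2 scale (Hep3B minus HepG2) and 0.17 over all 10173 genes, and 1.23 with apportioned FPKM. The widest gaps among members listed in both were those of KIF23, a kinesin of the central spindle, at 44 against 7.28 FPKM (2.44), and RACGAP1, its partner in the centralspindlin complex, at 65.9 against 11.8 (2.38). TOP2A (66.2 against 71.1 FPKM), AURKA (58.3 against 59.8) and MAD2L1 (30.7 against 29.2) lay close together in both, and CENPE was lower in the cells labelled Hep3B (4.73 against 8.43). With apportioned FPKM, CENPE was at 4.55 against 3.20, and AURKA at 37.0 against 59.3 (-0.67). The lines differ in origin as well as in these genes, and nothing in this contrast is a treatment.

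In HepG2 most mitotic genes were lower after Cur and Pip than in control, fewer of them and by less after the combination treatment, and the shifts were smallest after NaB. The median log2 fold change of the members was -0.39 after NaB, -1.34 after Cur and Pip and -0.90 with the combination, while the median over all genes tested was 0.00 in each. After Cur and Pip 21 of 49 members were past the threshold lower, beside 10.2% of all genes tested, and 1 was higher, beside 8.97%. After the combination 8 were lower, beside 11.5%, and 0 higher, beside 8.02%. After NaB 4 were lower, beside 5.07%, and 1 higher, beside 4.73%. The share of members past the threshold was thus near the background after NaB and after the combination. Some of these calls rest on a transcript that was missing in 1 library: among members listed in both libraries, 20 of 47 were lower after Cur and Pip (7.25% of all such genes), 5 of 45 after the combination (7.3%) and 3 of 47 after NaB (1.79%), and 0 were higher in any (5.16, 4.67 and 1.61% of all such genes). With apportioned FPKM the counts lower were 27, 9 and 1 of 49, beside 9.47, 9.73 and 3.8%. CKS1B, whose apportioned FPKM was 0 in every treated HepG2 library, is in each of these counts and is the 1 after NaB. SPC24 (just past -1.5) was the member nearest to the threshold from within after Cur and Pip, and CDC20 (-1.45) the nearest from outside.

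Direction was less divided than size. After Cur and Pip 46 of 47 members listed in both libraries were below control, beside 51.1% of all genes, and 42 had Cufflinks intervals that did not overlap, beside 40.6%. The exception was KIF14, a kinesin of the midbody, at 2.32 FPKM in control and 3.02 after Cur and Pip (0.27), which with apportioned FPKM was lower as well (-0.57). After the combination 40 of 45 were below control (51.1% of all genes), with 36 intervals apart (39.9%). After NaB 35 of 47 were below (48.9%), with 28 apart (31.5%), a share of members above the background in each case.

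**Figure D1:**
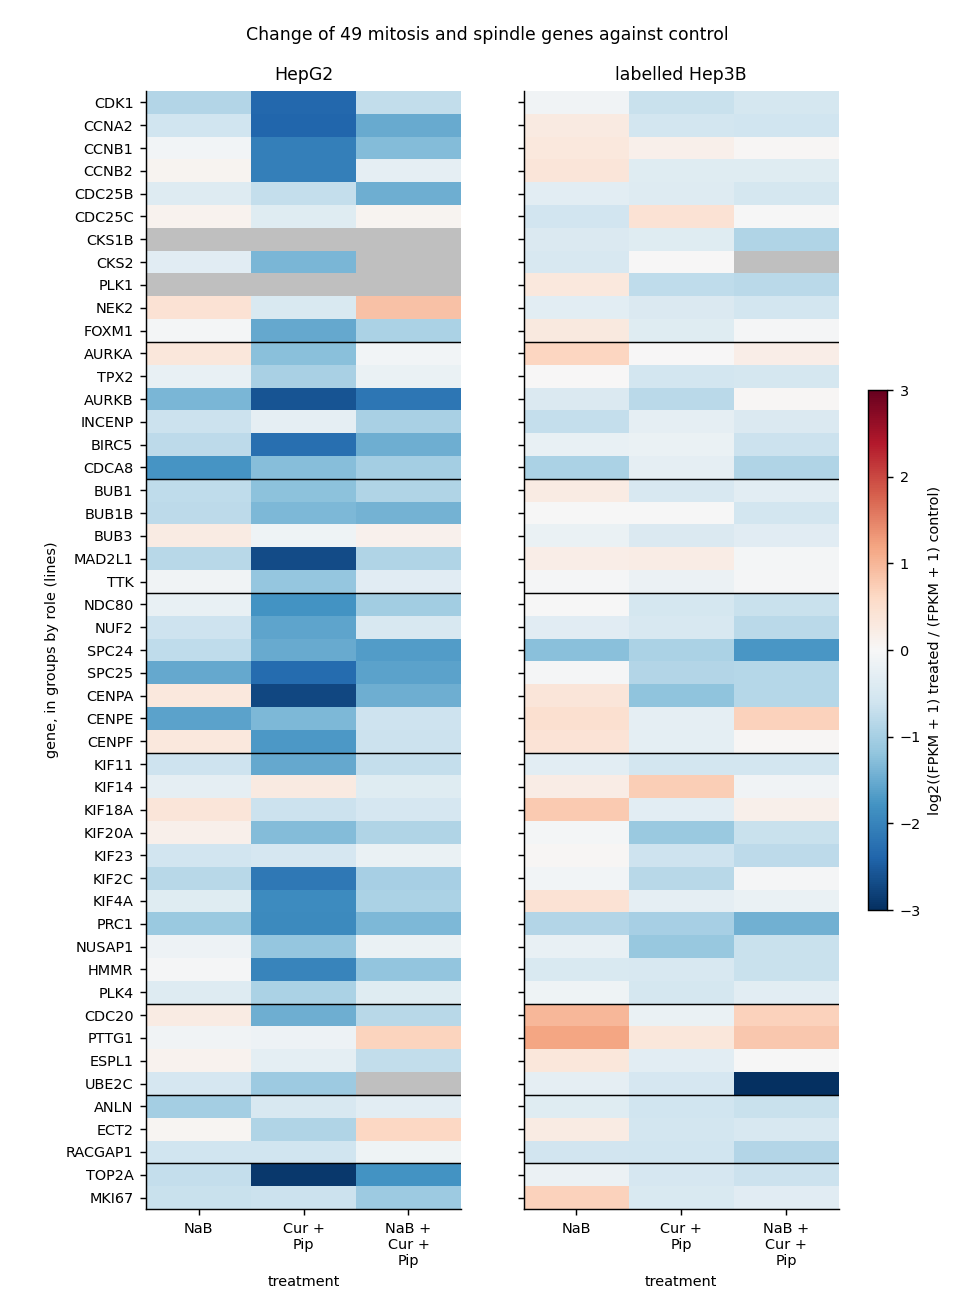
Log2 fold change of each of the 49 genes against the control of its line, on the (FPKM + 1) scale, with genes in rows by role and treatments in columns. Grey marks a gene with no assigned transcript in 1 of the 2 libraries. HepG2 after Cur and Pip is the column with the most genes under -1.5 (20 of those listed in both), and in the cells labelled Hep3B no gene is there after NaB or after Cur and Pip. The colour scale ends at -3, which UBE2C (-3.33) passes.

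Among the genes of mitotic entry, CDK1, the kinase that starts mitosis, was at 27.7 FPKM [25.8 to 29.6] in HepG2 control, 14.5 [13.3 to 15.7] after NaB, 4.58 [3.96 to 5.20] after Cur and Pip and 16.2 [14.9 to 17.6] with the combination. The intervals of NaB and the combination overlapped, and that of Cur and Pip lay below all others. The log2 fold changes were -0.89, -2.36 and -0.74. CCNA2, cyclin A2, went from 28.8 FPKM to 18.6, 4.72 and 9.54 in the same order, and CCNB1, cyclin B1, from 53.8 to 50.4, 12.3 and 21.3. Both cyclins were lowest after Cur and Pip (log2 fold changes -2.38 and -2.04) and stayed under the control after the combination (-1.5 and -1.30). CCNB2, cyclin B2, was at 24.3, 25.7, 5.10 and 19.9 FPKM, so the combination library lay close to control (-0.27). FOXM1, a transcription factor of G2 genes, fell past the threshold after Cur and Pip (20.1 to 6.33 FPKM, a change of -1.53). After the combination FOXM1 was at 9.99 FPKM (-0.94), or 2.34 against 18.1 with apportioned FPKM (-2.52). CDC25B, a phosphatase that activates CDK1, was lowest after the combination (24.1, 18.1, 14.3 and 8.11 FPKM). CDC25C, of the same family, moved by at most 0.35 in size by summed FPKM (5.02, 5.45, 3.71 and 5.37). With apportioned FPKM its change after Cur and Pip was -0.72. NEK2, a centrosome kinase, was highest after the combination (7.04, 9.80, 4.82 and 13.9 FPKM, 0.89), which apportioned FPKM did not show (-0.04).

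PLK1, CKS1B and CKS2 could not be followed by summed FPKM in HepG2. PLK1, the kinase of many mitotic steps, had no assigned transcript in control and combination, where transcripts ran on into the neighbouring gene DCTN5. With apportioned FPKM PLK1 was at 30.7, 58.9, 7.58 and 24.7, highest after NaB (0.92) and lowest after Cur and Pip (-1.88). The control and combination values come from those run-on transcripts, which had 66.7 to 73.3% of their bases on DCTN5. Their FPKM covers both genes, so these values are not like those after NaB and after Cur and Pip. CKS2, a small subunit of CDK complexes, was at 141 FPKM in control, 111 after NaB and 54.0 after Cur and Pip. It was unassigned after the combination because only 43.2% of the bases of its transcript lay on the gene, and its apportioned FPKM was 127, 79.0, 54.0 and 45.8. CKS1B, its paralog, was at 86.7 FPKM in control, and no transcript was assembled there on either strand after NaB or Cur and Pip. After the combination only transcripts of the opposite strand crossed it, so its level in 3 of 4 HepG2 libraries is not known. CKS1B, CKS2, PTTG1 and UBE2C have close copies or pseudogenes that may share reads.

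The Aurora kinases went different ways. AURKB, the kinase of the chromosomal passenger complex, was at 32.9 FPKM [30.3 to 35.5] in control, 12.2 [10.9 to 13.5] after NaB, 4.63 [3.75 to 5.50] after Cur and Pip and 6.60 [5.42 to 7.78] with the combination. All 3 treated libraries lay under the control with intervals apart from it (-1.36, -2.59 and -2.16), and the last of them overlapped slightly with that of Cur and Pip. AURKA, the centrosomal Aurora kinase, was at 59.8, 75.5, 24.7 and 56.0 FPKM, low after Cur and Pip alone (-1.24). TPX2, the activator of AURKA, was likewise lowest after Cur and Pip (54.6, 46.4, 27.5 and 47.4 FPKM). BIRC5 (survivin) of the passenger complex was at 51.1, 29.1, 9.93 and 18 FPKM (-0.79, -2.25 and -1.46). INCENP, its scaffold, was lowest after the combination (9.22, 5.58, 7.46 and 4.21 FPKM). CDCA8 (borealin) was lowest after NaB (17.0, 4.32, 6.40 and 7.97 FPKM, -1.76), a change that was -0.63 with apportioned FPKM, and its -1.01 with the combination was 0.14.

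Of the spindle checkpoint, MAD2L1, the protein that binds and holds CDC20, had the largest change after Cur and Pip: it was at 29.2 FPKM [27.2 to 31.3] in control, 15.9 [14.5 to 17.2] after NaB, 3.71 [3.21 to 4.21] after Cur and Pip and 15.2 [13.9 to 16.6] with the combination. The NaB and combination intervals overlapped, and Cur and Pip stood apart (-2.68, or -1.96 with apportioned FPKM). BUB1B (BUBR1) was at 11.5, 6.24, 3.9 and 3.65 FPKM, close together in the libraries with Cur and Pip. The kinases BUB1 (16.6, 9.38, 6.5 and 8.37 FPKM) and TTK (6.46, 5.93, 2.34 and 4.85) did not pass the threshold, although BUB1 (-1.82) and BUB1B (-2.02) did so after Cur and Pip with apportioned FPKM. BUB3, a checkpoint protein that also works in interphase cells, stayed between 55.1 and 71.9 FPKM in all 4 HepG2 libraries.

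The kinetochore and centromere group had a median of -1.73 over 7 members after Cur and Pip (-1.74 with apportioned FPKM). Past the threshold lower were 6 of the 7, beside 10.2% of all genes tested, and 5 of 7 with apportioned FPKM, beside 9.47%. CENPA, the histone H3 variant that marks the centromere, was at 14.9 FPKM [13.4 to 16.5] in control, 18.9 [17.0 to 20.9] after NaB, 1.39 [1.09 to 1.70] after Cur and Pip and 4.80 [3.83 to 5.77] with the combination. No interval of a treated library overlapped that of control: NaB lay above it (0.32) and the others below (-2.74 and -1.46). All 4 subunits of the NDC80 complex, which holds microtubules, were past the threshold after Cur and Pip by summed FPKM. NDC80 went from 7.58 to 1.49 FPKM (-1.78), NUF2 from 10.1 to 2.68 (-1.59, or -1.47 with apportioned FPKM) and SPC25 from 13.8 to 1.98 (-2.31). SPC24 was the member with the lowest combination level, at 4.74, 2.36, 1.02 and 0.792 FPKM. CENPF went from 8.55 to 1.88 FPKM (-1.73). CENPE, a kinesin of the kinetochore, did not pass after Cur and Pip (8.43 to 2.73 FPKM, -1.34), and its change after NaB (2.09 FPKM, -1.61) was -0.49 with apportioned FPKM.

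The kinesins and spindle proteins had a median of -1.30 after Cur and Pip, with 5 of 11 past the threshold lower, beside 10.2% of all genes tested. These were KIF2C, which takes microtubules apart (16.7 to 3.03 FPKM, -2.13), HMMR (9.82 to 1.74, -1.98), PRC1 (29.6 to 7.10, -1.92), KIF4A (8.67 to 1.62, -1.88) and KIF11, the motor that separates the poles (9.08 to 2.50, -1.53). PRC1 bundles the microtubules of the central spindle, and it was under control in each treated HepG2 library (13.2 FPKM after NaB and 10.9 after the combination). NUSAP1, PLK4 and KIF18A did not pass in any HepG2 comparison (-1.16, -0.95 and -0.65 after Cur and Pip). KIF20A, of the central spindle, was at 14.9, 16.7, 5.46 and 7.53 FPKM. Its only transcript after Cur and Pip was a single exon of 461 nt, where the longest of the other libraries had 19 exons, and its apportioned change was -3.05 in place of -1.30. KIF23 was at 7.28, 4.53, 4.83 and 6.16 FPKM.

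TOP2A, the topoisomerase that untangles sister chromatids, had the largest change after Cur and Pip in HepG2 among members listed in both libraries. It was at 71.1 FPKM [68.0 to 74.3] in control, 42.6 [40.6 to 44.6] after NaB, 8.77 [7.67 to 9.87] after Cur and Pip and 19.9 [18.8 to 21.0] with the combination, and no 2 of these intervals overlapped (-0.73, -2.88 and -1.79). MKI67 (Ki-67), the coat of mitotic chromosomes, was lowest after the combination (11.4, 6.83, 6.95 and 4.80 FPKM). With apportioned FPKM the MKI67 change after Cur and Pip was -1.82 in place of -0.64.

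By summed FPKM, 0 of the 4 genes of anaphase and 0 of the 3 of cytokinesis passed the threshold lower after Cur and Pip, beside 10.2% of all genes tested. With so few genes these counts do not set them apart from other genes. The medians were -0.69 and -0.60. With apportioned FPKM 1 of 4 and 1 of 3 passed, beside 9.47%, and the medians were -1.34 and -0.66. CDC20, the activator of the anaphase-promoting complex, was at 39.1, 46.5, 13.6 and 21.6 FPKM (-1.45 after Cur and Pip). PTTG1 (securin), which keeps separase inactive, stayed near control after NaB and after Cur and Pip and was highest after the combination (53.8, 50, 48.3 and 85.3 FPKM). ESPL1 (separase) was at 4.43, 4.81, 3.43 and 2.23 FPKM, and its change after Cur and Pip was -0.29, or -1.71 with apportioned FPKM. UBE2C, the ubiquitin-conjugating enzyme of the complex, went from 28.5 to 19.9 and 13.0 FPKM, and after the combination its transcripts ran across DNTTIP1 and were unassigned (apportioned FPKM 22.9, against 28.5 in control). ECT2, which starts the cleavage furrow, was at 15.1, 15.7, 7.63 and 24.0 FPKM, again highest after the combination (0.63, and 0.58 with apportioned FPKM). ANLN (17.0, 7.87, 11.9 and 13.4 FPKM) and RACGAP1 (11.8, 7.47, 7.48 and 10.7) did not pass the threshold with summed FPKM, and ANLN did so after Cur and Pip with apportioned FPKM (-1.67).

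**Figure D2:**
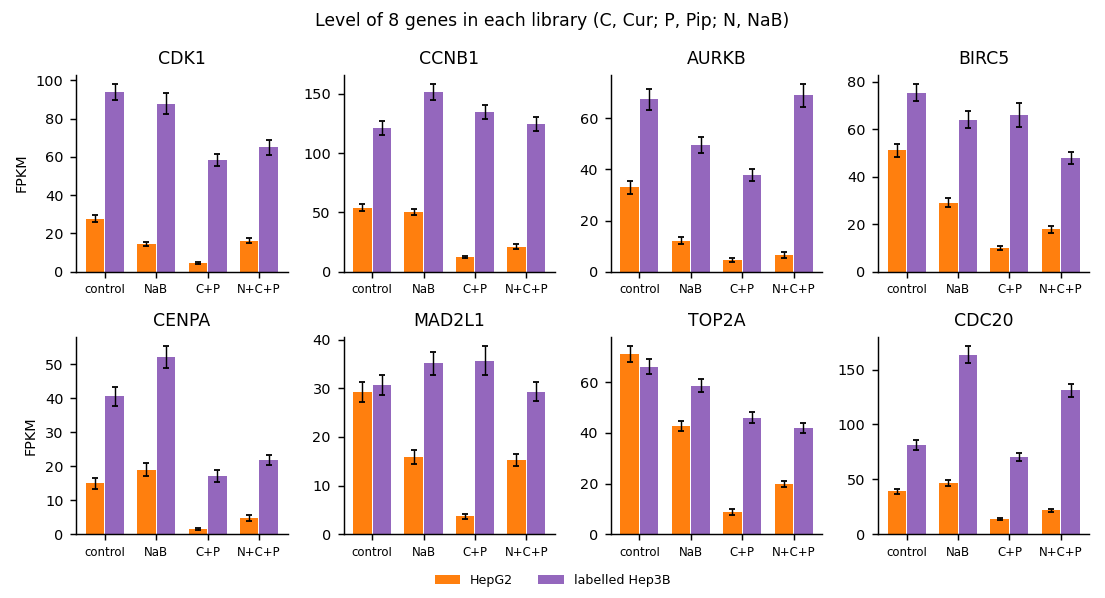
FPKM of 8 genes in each library, with 95% Cufflinks intervals of that library as error bars and 1 library per bar. In HepG2 all 8 genes are lowest after Cur and Pip (C+P), with the combination (N+C+P) above it, while in the cells labelled Hep3B MAD2L1 and CCNB1 are not lower after Cur and Pip than in control by this summed FPKM (-0.39 and -0.21 with apportioned FPKM).

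Adding NaB to Cur and Pip went with higher levels of most members in HepG2. Of 45 members listed in all 4 HepG2 libraries, 33 had their lowest level after Cur and Pip, beside 28% of all such genes, and 7 after the combination, beside 24.8%. In 33 the combination lay between Cur and Pip and control, beside 38.3%. Between the combination and Cur and Pip directly, the median log2 difference was 0.72 over 45 members listed in both (0.63 over all 49, and 0.81 with apportioned FPKM), and 38 of 45 were higher in the combination, beside 51.3% of all genes. MAD2L1 (1.79), CCNB2 (1.78), CDK1 (1.63) and ECT2 (1.53) passed the threshold higher, 4 of 45 beside 1.97%, and 0 passed lower, beside 2.63%. Intervals were apart and higher in 33 of 45 (34.8% of all genes), and apart and lower in 4 (32.2%). Those 4 were CDC25B (-0.75), INCENP (-0.70), KIF14 (-0.63) and MKI67 (-0.46). With apportioned FPKM, MKI67 was at 0.79 and KIF14 at -0.02, and MAD2L1 (1.19) and ECT2 (1.04) were under the threshold. KIF20A (1.83), TOP2A (1.73) and PLK1 (1.58) were past it beside CCNB2 (1.78) and CDK1 (1.64). The PLK1 value sets transcripts that ran on into DCTN5 against a transcript of PLK1 and is not a like comparison. Against NaB alone the combination was lower in 33 of 45 members, beside 52.2%, with a median of -0.25, and CENPA (-1.78) alone of those listed in both passed the threshold (6.15% of all such genes). The NaB dose was the same in both HepG2 treatments that held it. With 1 library each, a difference between cultures cannot be told apart from the addition of NaB.

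**Figure D3:**
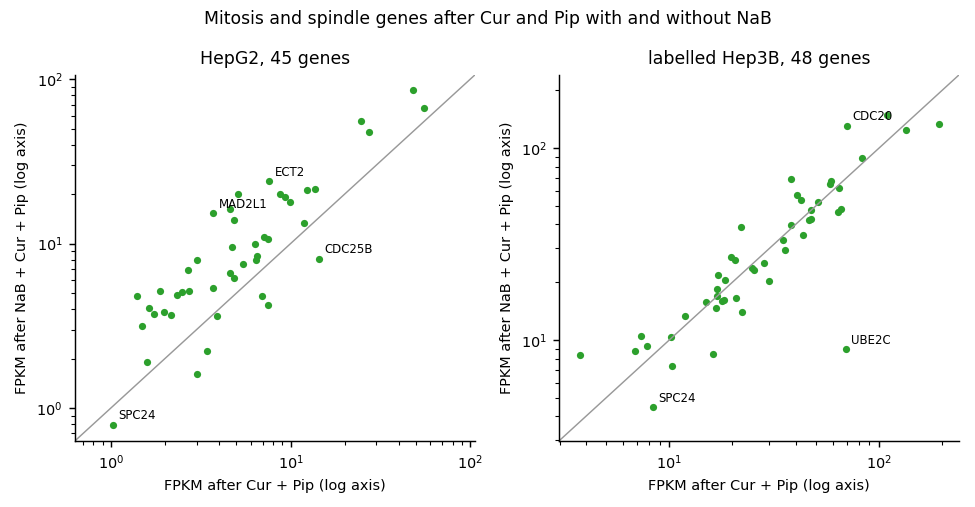
FPKM of each gene after the combination (vertical, log axis) against FPKM after Cur and Pip (horizontal, log axis), for genes listed in both libraries, with the line of equal levels in grey. In HepG2 38 of 45 genes lie above the line, and in the cells labelled Hep3B 25 of 48 do.

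In the cells labelled Hep3B the same treatments went with smaller changes. The median log2 fold change of the members was -0.04 after NaB, -0.47 after Cur and Pip and -0.53 with the combination, while over all genes tested it was -0.12, 0.00 and -0.05. After NaB and after Cur and Pip 0 of 49 members were past the threshold in either direction, beside 7.03 and 3.97% of all genes lower and 4.98 and 6.47% higher. After the combination 3 were lower, beside 8.19%, and 0 higher, beside 6.8%. Those 3 were SPC24, UBE2C and CKS2, and CKS2 had no assigned transcript in that library, which left 2 of 48 members listed in both, beside 4.53%. By direction, 42 of 49 members were below control after Cur and Pip, beside 51.6% of all genes, 40 of 48 after the combination, beside 55.7%, and 28 of 49 after NaB, beside 60.2%. Intervals apart and lower were found for 40 of 49 members after Cur and Pip (33.4% of all genes), 33 of 48 after the combination (42.7%) and 20 of 49 after NaB (45.3%), where 19 others were apart and higher (27%). With apportioned FPKM, 0 of 49 were past the threshold lower with NaB (6.06% of all genes), 2 with Cur and Pip (3.22%) and 2 with the combination (6.96%). Median-of-ratios scaling put the NaB median at 0.12, above 0, and that of all genes at 0.00.

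**Figure D4:**
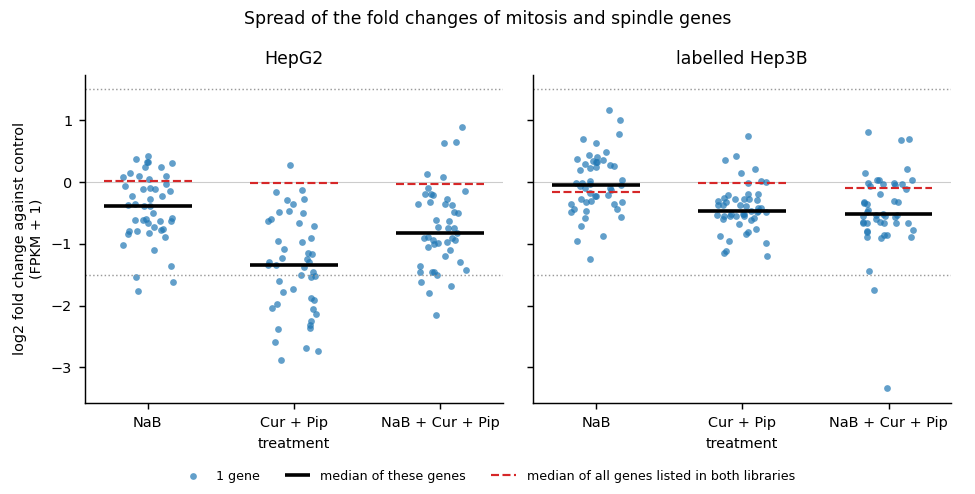
Log2 fold change of the genes listed in both libraries (points), with their median (black) and the median of all genes listed in both (red, dashed), and dotted lines at 1.5 and -1.5. After Cur and Pip the black line is at -1.34 in HepG2 and at -0.47 in the cells labelled Hep3B, with the red line near 0 in both.

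SPC24 had the lowest log2 fold change after NaB in these cells and was low in every treated library, at 17.2 FPKM [16 to 18.4] in control, 6.68 [6 to 7.36] after NaB, 8.37 [7.61 to 9.13] after Cur and Pip and 4.46 [3.96 to 4.96] with the combination. No treated interval met that of control (-1.25, -0.96 and -1.74). PRC1 was also under control in each treated library, at 127, 69.4, 63.8 and 46.3 FPKM (-0.87, -0.99 and -1.44). CENPA was at 40.5, 52.1, 17.1 and 21.9 FPKM, above control after NaB and below it in the other libraries, and its -1.20 was the largest change after Cur and Pip. NUSAP1 (90.5 to 40.4 FPKM, -1.14) and KIF20A (43.7 to 19.7, -1.11) came next.

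Of the genes that were low after Cur and Pip in HepG2, some were near control and some below it in the cells labelled Hep3B. MAD2L1 was at 30.7 FPKM [28.5 to 32.8], 35.1 [32.8 to 37.4], 35.7 [32.7 to 38.6] and 29.3 [27.3 to 31.2] in control, NaB, Cur and Pip, and combination, all within 0.21 of control in log2 by summed FPKM (-0.39 after Cur and Pip with apportioned FPKM). CCNB1 was at 121, 151, 135 and 124 FPKM, none of them below control (with apportioned FPKM 121, 151, 105 and 119). TOP2A was at 66.2, 58.7, 46.1 and 42.0 FPKM (-0.51 after Cur and Pip), and CDK1 at 93.9, 87.8, 58.4 and 65.0 (-0.68). With apportioned FPKM CDK1 was at 81.9, 43.2, 54.0 and 32.7 (-0.91, -0.59 and -1.30), lower after NaB as well and lowest after the combination. AURKB was lowest after Cur and Pip and near its control level after the combination (67.4, 49.4, 37.8 and 68.9 FPKM, with apportioned FPKM 59.8, 40.6, 35.0 and 48). BIRC5 went from 75.5 to 66.1 FPKM after Cur and Pip (-0.19), but with a transcript of only 654 nt, and its apportioned change was -1.93.

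Of the 4 anaphase genes, PTTG1, CDC20 and ESPL1 (8.82 to 11.4 FPKM, 0.33) were above control after NaB in these cells. PTTG1 was at 84.9 FPKM [79.9 to 90.0] in control, 193 [182 to 203] after NaB, 109 [102 to 115] after Cur and Pip and 149 [141 to 158] with the combination, so all treated libraries were above control (1.17, 0.35 and 0.81). CDC20 was at 81.3 FPKM [77.1 to 85.5], 164 [156 to 171], 70.5 [66.7 to 74.2] and 131 [125 to 137], high in the libraries with NaB and low in Cur and Pip (1, -0.20 and 0.68). None of the 3 passed the threshold. AURKA (58.3, 91.5, 59.2 and 67.6 FPKM), MKI67 (23.7, 38.9, 16.8 and 18.5) and KIF18A (9.31, 16.8, 7.32 and 10.4) were likewise highest after NaB. UBE2C was at 99.4, 81.7, 69.4 and 8.97 FPKM, and its change after the combination was -3.33, or -1.70 with apportioned FPKM (91.0 to 27.3).

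The remaining members of these cells are given by their log2 fold changes after NaB, Cur and Pip, and both together, in that order. The checkpoint genes BUB1, BUB1B, BUB3 and TTK changed by -0.55 to 0.25 in the 3 comparisons. Of the centralspindlin and furrow genes, RACGAP1 (-0.57, -0.60 and -0.89), ANLN (-0.36, -0.59 and -0.66) and KIF23 (0.03, -0.62 and -0.78) were lower after Cur and Pip or the combination, and ECT2 likewise (0.24, -0.54 and -0.48). KIF14 was the highest after Cur and Pip (9.25 to 16.1 FPKM, 0.74), or -0.18 with apportioned FPKM. CKS1B was listed in all 4 libraries here (249, 183, 193 and 134 FPKM), and PLK1 as well (109, 137, 64.5 and 62.2). For CKS2, unassigned after the combination, apportioned FPKM was 211, 149, 226 and 96.3 (-1.12).

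Of the cyclins and their regulators in these cells, CCNA2 (0.28, -0.55 and -0.60) and CCNB2 (0.37, -0.37 and -0.36) lay above control after NaB and below it in the other libraries, with intervals apart. FOXM1, the transcription factor of this programme, was at 0.29, -0.37 and -0.04. The phosphatases CDC25B and CDC25C were at -0.31, -0.38 and -0.53 and at -0.58, 0.42 and -0.02. With apportioned FPKM the 0.42 and -0.02 of CDC25C were -0.41 and -0.79. NEK2 was below control in each (-0.32, -0.42 and -0.56), as were INCENP (-0.70, -0.27 and -0.44) and CDCA8 (-0.96, -0.28 and -0.91, where the middle value was -1.35 with apportioned FPKM). TPX2 (0.01, -0.54 and -0.52), NDC80 (-0.01, -0.52 and -0.66) and SPC25 (-0.04, -0.87 and -0.85) were close to control after NaB and lower in both libraries with Cur and Pip. NUF2 (-0.35, -0.49 and -0.80), KIF11 (-0.32, -0.55 and -0.55) and HMMR (-0.46, -0.49 and -0.67) were lower in all 3 by summed FPKM, with intervals apart. With apportioned FPKM KIF11 was nearly level after Cur and Pip (17.1 in control and 16.7), and HMMR after NaB (18.1 in control and 17.0). CENPF (0.40, -0.29 and 0.04), KIF4A (0.44, -0.26 and -0.19) and ESPL1 (0.33, -0.32 and -0.01) were above control after NaB alone beyond their intervals. CENPE was at 0.49, -0.28 and 0.70, the last of which was -0.32 with apportioned FPKM. KIF2C (-0.09, -0.83 and -0.04) and PLK4 (-0.13, -0.53 and -0.31) were lowest after Cur and Pip. With apportioned FPKM PLK4 was at 8.18 in control, 9.84 after NaB, 6.88 after Cur and Pip and 8.15 with the combination.

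Levels after the combination were not shifted to one side of those after Cur and Pip in these cells. The lowest level was after Cur and Pip in 23 of 48 members listed in all 4 libraries, beside 15.4% of all such genes, and after the combination in 19, beside 27.1%. The median difference between the combination and Cur and Pip was 0.00, with 25 of 48 members higher, beside 42.8%. Of genes listed in both, 0 members passed the threshold higher, beside 1.43%, and 1, UBE2C, passed lower, beside 2.33%. Against NaB alone 42 of 48 were lower, beside 45.4%, with a median of -0.42, and UBE2C alone passed the threshold (1.48%). With apportioned FPKM UBE2C was at -1.32 against Cur and Pip, under the threshold, and at -1.55 against NaB, just past it. The lines had separate controls, so their fold changes can be set side by side. Over the 45 members listed in all 8 libraries, the log2 fold changes after Cur and Pip had a Pearson r of 0.36 and a Spearman rho of 0.27, and 39 were lower in both lines, 5 in HepG2 only and 0 in the other cells only. The same split over all genes was not taken, so these counts do not set the members apart from other genes. Members of one library share its depth and assembly, and they are not independent. The difference between the lines was not tested, with 1 library per condition.

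A fit that takes both lines together asks which members moved alike in both. With limma on log2(FPKM + 1), over 15455 genes and with the cell line as a term (3 residual degrees of freedom), 0 members passed an adjusted p of 0.05 after NaB or after Cur and Pip, where 0 (0%) and 6 (0.0388%) of all genes did, and 1 did after the combination, where 19 (0.123%) did. That member was CKS2 (mean -7.53 ± 0.56 SE, adjusted p = 0.0395 by limma, lower in 2 of 2 lines), whose value rests on transcripts that were not assigned in either combination library, and with apportioned FPKM limma called 0 members. At an unadjusted p under 0.05 there were 3 members after NaB (4.72% of all genes), 13 after Cur and Pip (5.93%) and 7 with the combination (10.7%), all lower. PRC1 and SPC24 were among them in all 3 treatments, with means of -1.45 ± 0.37 SE and -1.23 ± 0.36 SE after Cur and Pip (limma adjusted p = 0.686 for both). CENPA had the largest mean of the 13, -1.97 ± 0.48 SE (limma adjusted p = 0.686). The fit counts any difference between the lines as spread. Leaving out any 1 library left 2 residual degrees of freedom, and 0 of all 15455 genes then passed the adjusted threshold. The 0 members in those fits therefore say nothing about the members.

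Beyond these members, 111 other genes of mitosis were taken as a list, of which 108 were tested in HepG2 and 110 in the cells labelled Hep3B. In HepG2 their median after Cur and Pip was -0.66, with 22 lower past the threshold, beside 10.2% of all genes tested, and 4 higher, beside 8.97%. After NaB the median was -0.38, with 6 lower (5.07% of all genes) and 2 higher (4.73%), and after the combination -0.38, with 12 lower (11.5%) and 3 higher (8.02%). Among those listed in both libraries, 17 of 99 were lower after Cur and Pip (7.25% of all such genes), 3 of 102 after NaB (1.79%) and 6 of 99 after the combination (7.3%). In the cells labelled Hep3B the medians were -0.18, -0.27 and -0.36, with 8, 4 and 7 lower, beside 7.03, 3.97 and 8.19% of all genes, and 1, 4 and 1 higher, beside 4.98, 6.47 and 6.8%. Of those listed in both libraries, 6 of 104 were lower after NaB, 0 of 102 after Cur and Pip and 5 of 103 after the combination. The share of all such genes was 4.53% for the combination and is not given here for the other treatments. The counts after NaB and after Cur and Pip therefore do not set these genes apart from others. Condensin, which compacts chromosomes, had the lowest median of the 9 groups after Cur and Pip in HepG2 (-1.24, with 3 of 8 lower), and cohesin, which holds sister chromatids, had 0 of 11 past the threshold (-0.51).

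MYBL2 (B-MYB), the MuvB partner named above, was the lowest after Cur and Pip in HepG2 of those listed in all 4 libraries, at 59.1 FPKM in control and 6.87 treated (-2.93, or -3.12 with apportioned FPKM). CENPM of the inner kinetochore (16.8 to 1.95 FPKM, -2.60) and DEPDC1B (18.1 to 2.36, -2.51) followed. LIN37, a subunit of MuvB itself, was higher (4.66 to 16.5 FPKM, 1.63), as was HAUS3 of the augmin complex (2.18 to 9.20, 1.68, but 0.67 with apportioned FPKM) and MAD2L1BP, which takes MAD2 off CDC20 (27.2 to 56.8, 1.04). After the combination in HepG2 ZWINT (35.1 to 9.15 FPKM, -1.83) and GTSE1 (12 to 2.80, -1.78) were low in both measures, whereas RBBP4 (-2.44) was -0.62 with apportioned FPKM. MAD2L1BP was higher there too (55.0 FPKM, 0.99), with HAUS3 (6.96 FPKM, 1.33) and SKA2 (27.2 FPKM against 13.9, 0.92, but -0.07 with apportioned FPKM).

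In the cells labelled Hep3B the lowest after Cur and Pip were SGO1 (18.7 to 7.62 FPKM, -1.19, but -0.39 with apportioned FPKM), DLGAP5 (28.9 to 13.0, -1.10) and NCAPD2 (131 to 64.6, a change of -1), and the highest CENPU (1.57), KIF20B (0.94) and KNTC1 (0.82). None of those 3 highest kept its size with apportioned FPKM (0.10, -0.15 and -0.30). After the combination HAUS4 (54.1 to 15.9 FPKM, -1.71) and RBL2, the pocket protein p130 (17.2 to 4.55, -1.71), were low in both measures. NCAPD2 was at 22.9 FPKM (-2.46) there, but at 0.69 with apportioned FPKM, and LIN37 (0.91), CENPU (0.94) and HAUS6 (0.95) were the highest.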

How the data were processed

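RNA-seq was done on 8 libraries, 1 per condition, of HepG2 cells and cells labelled Hep3B. The authors isolated total RNA in triplicate (whether the 3 were pooled is not stated), prepared directional libraries, mapped paired 150-nt reads to GRCh38 with STAR and ran Cufflinks on each library. FastQC and Cuffdiff appear as well in the submitters' processing notes. Tool versions were not given in the sources used here. Per the file headers, the deposited unit is FPKM, 1 value for each assembled transcript, beside a 95% interval and a coverage. No counts were used, so depth was estimated from coverage and length, at 25.6 to 35.7 M fragments per library.

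With bedtools 2.31.1 each transcript was assigned to the GENCODE release 44 gene holding at least 50% of its exonic bases on the same strand, with ties going to protein-coding, named and shorter genes, and FPKM was summed per gene. Of 24846 to 36652 transcripts per library, 70.4 to 88.1% were assigned. Apportioned FPKM multiplies the FPKM of every overlapping transcript of that strand by the share of the canonical exon length that it covers, whether or not the transcript was assigned. Fold changes used a pseudocount of 1, which understates changes of low genes, and genes with FPKM of at least 1. Assembly decides these values: a transcript that runs into a neighbour leaves its gene, and a short one raises FPKM.

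limma 3.58.1 (R 4.3.3) was fitted with line and treatment as terms and Benjamini-Hochberg adjustment. It was also run on simulated data. For the fold calls, large known changes were set in a copy of the data, which checks the arithmetic only. The outcomes are not given here. Python 3.11.15, numpy 2.4.6, pandas 2.3.3 and matplotlib 3.10.9 were used. Promoter windows are from RefSeq, with the first listed window of each gene.

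The members, the list of other mitotic genes and the tests were chosen with earlier results of these data known. All members were described. Of the other mitotic genes, up to 3 lowest and 3 highest per line after Cur and Pip or the combination were named among those listed in every library of the line. The alternatives were other pseudocounts, filters, thresholds and scaling, the largest transcript, apportioned FPKM, leaving out transcripts with at least 20% of their bases in another gene, genes listed in every library, and for limma a trended variance and each library left out. The comparisons of the combination with each single treatment, and counts over genes listed in both libraries, were added after seeing the data.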

Additional observations from a re-analysis of the deposited data

Results flagged for a closer look

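Of the members, 4 member and treatment pairs moved in opposite directions in the lines, with Cufflinks intervals apart from control in both and changes over 0.5 in size in both, and none of these differences was tested. MKI67 after NaB was lower in HepG2 (-0.66) and higher in the cells labelled Hep3B (0.69), a difference of -1.35 (HepG2 minus Hep3B), and apportioned FPKM gave the same directions (-0.60 and 0.65). CDC20 after the combination was at -0.83 and 0.68, a difference of -1.51, and again apportioned FPKM kept the directions (-0.71 and 0.69). CENPE after the combination was at -0.62 and 0.70 (difference -1.32), and the directions turned with apportioned FPKM (0.18 and -0.32). NEK2 after the combination was at 0.89 and -0.56 (difference 1.45), but at -0.04 in HepG2 with apportioned FPKM. With no limit on size, intervals apart in opposite directions occurred for 9 of 47 members after NaB, 1 of 47 after Cur and Pip (CCNB1, -2.04 and 0.15) and 4 of 45 after the combination. The share over all genes was not taken for these counts or for the 4 pairs. Neither can therefore be read as particular to the members. The NaB dose differed between the lines.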

How the results depend on the processing

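The direction of the member medians held in every alternative run for the 5 comparisons with control other than NaB in the cells labelled Hep3B, where median-of-ratios scaling turned -0.04 to 0.12 and apportioned FPKM put it at 0.00. In HepG2 the NaB median was -0.54 with the largest transcript and -0.49 with apportioned FPKM. The Cur and Pip median was -1.43 with a pseudocount of 0.1, -0.91 with 5, -1.45 with the largest transcript and -1.67 with apportioned FPKM, and the combination median was -0.63 with a pseudocount of 5 and -0.74 with apportioned FPKM. For Cur and Pip in the cells labelled Hep3B it was -0.39 with a pseudocount of 5, -0.38 with the largest transcript and -0.41 with apportioned FPKM. For the counts that follow, the share of all genes at the same setting is not given, except for those lower with apportioned FPKM, given above. They show how the member calls move with the setting and do not set the members against other genes. Members past the threshold lower in HepG2 after NaB were 1 with a pseudocount of 5 and 1 with apportioned FPKM, and 7 at a log2 change over 1. Those higher were 2 with the largest transcript and 0 with apportioned FPKM or with genes listed in all 4 libraries. After Cur and Pip in HepG2, 11 were lower with a pseudocount of 5 and 32 at a change over 1, and 0 were higher with a pseudocount of 5, with apportioned FPKM or with genes listed in all 4 libraries. After the combination in HepG2, 5 were lower with a pseudocount of 5, 13 with the largest transcript, 5 with genes listed in all 4 libraries and 18 at a change over 1. In the cells labelled Hep3B, NaB gave 1 lower and 1 higher with the largest transcript and 1 lower and 2 higher at a change over 1, and Cur and Pip gave 2 lower with apportioned FPKM and 3 at a change over 1. PLK1 after Cur and Pip in HepG2, unassigned in control, turned from higher to -1.88 with apportioned FPKM. The apportioned control value rests on transcripts that ran on into DCTN5. The single limma call after the combination was 0 with a pseudocount of 5, with apportioned FPKM and with genes listed in all 8 libraries, and 0 in each fit that left out 1 library (lowest 0, highest 0, also after NaB and after Cur and Pip). Each fit that left out 1 library called 0 of all 15455 genes, and the fit on genes listed in all 8 called 0 of 8556. Those fits thus cannot tell whether the call holds. The cause of these shifts was not tested. By construction, the restriction to listed genes leaves out genes with no assigned transcript, and the apportioned value counts unassigned transcripts of the strand. CKS1B had no such transcript in the treated HepG2 libraries, so its apportioned FPKM was 0 there and it was still called lower.

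No paired analysis was possible because each condition had 1 library and the labels carry no replicate numbers, beyond the cell line term of the limma fit, which sets each treated library against the control of its line. The limits are those of 1 library per condition, of an estimated and not a counted depth, and of assembly, which was least complete for the members in HepG2 after Cur and Pip, the library in which they were lowest.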
